A study of Mus musculus with 12 samples.

Results

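The genes that degrade, scavenge and move heme were followed in mouse liver after an acute iron load. They comprise the heme oxygenases Hmox1 and Hmox2, the biliverdin reductases Blvra and Blvrb, the plasma scavengers Hpx (hemopexin) and Hp (haptoglobin), the heme-sensing repressor Bach1, the heme transporters Slc48a1 and Flvcr1, and Por, the cytochrome P450 oxidoreductase that passes electrons to heme oxygenase. Members were found by gene symbol, and 10 of the 55414 genes in the counts matched. All 10 passed the filter on low counts, which kept 13857 genes for testing. Livers came from female C57BL/6J mice aged 8 to 12 weeks. They were injected i.p. with FeSO4 at 300 mg/kg or with NaCl solution (0.9%), then 6 h later received PBS or 10 mg/kg dexamethasone (DEX, a synthetic glucocorticoid), and the liver was taken 2 h after that, 8 h after the first injection. The 4 groups of 3 mice are called NaCl/PBS, NaCl/DEX, FeSO4/PBS and FeSO4/DEX.

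Free heme promotes oxidation, so it is bound in plasma by hemopexin, while free hemoglobin is bound by haptoglobin. Inside cells, heme oxygenase opens the heme ring with electrons from POR and releases iron, carbon monoxide and biliverdin, which biliverdin reductase turns into bilirubin. HMOX1 is the inducible heme oxygenase and HMOX2 the constitutive one. BACH1 represses Hmox1 at antioxidant response elements until it binds heme, and the activator NRF2 uses the same elements. SLC48A1 carries heme out of lysosomes into the cytosol, and FLVCR1 is known as a heme exporter. Hepatocytes secrete both scavengers, and liver macrophages (Kupffer cells) clear old red cells.

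Library totals lay between 16335651 and 23827340 reads on genes. Normalized counts are counts scaled with edgeR's TMM factors, and an LFC is a log2 fold change from edgeR's quasi-likelihood model of all 12 libraries, called where the Benjamini-Hochberg adjusted p over 13857 genes was 0.05 or less. The median LFC of all tested genes after FeSO4 was -0.02 with TMM and -0.34 with library size alone, so an LFC here is relative to most genes. For 1 gene taken alone, an exact permutation test of 3 mice against 3 cannot give a two-sided p below 0.1. RNA came from whole liver, so fewer cells of a type and less RNA per cell cannot be told apart. The FeSO4/PBS mouse 1 library had the highest count of its group for 8 of the 10 members, against 39.1% of all tested genes. The NaCl/PBS mouse 2 library was likewise highest for 8 of 10, against 35.9% of all tested genes. The summed acute-phase genes, such as serum amyloid A and fibrinogen, were also highest in these libraries. They reached 1520026 normalized counts in FeSO4/PBS mouse 1 against 807044 and 952482 in mice 2 and 3, and 601607 in NaCl/PBS mouse 2 against 496821 and 403765 in mice 1 and 3. In the DEX arm, the FeSO4/DEX mouse 2 library was highest for 7 of 10 members, against 35.5% of all tested genes. Its acute-phase sum was 965998, against 887896 and 752811 in FeSO4/DEX mice 1 and 3. Most results that rest on FeSO4/PBS mouse 1 or NaCl/PBS mouse 2 are given below with and without that mouse. Values without FeSO4/DEX mouse 2 are given for Slc48a1, Hmox2 and the ratio of Hp to Hpx.

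After FeSO4, 8 of the 10 members were upregulated in mice without DEX and none was downregulated. Of all tested genes, 27.2% were called higher and 27.3% lower in the same comparison. The members' median LFC was 0.82, and 3 members (Hmox1, Bach1 and Flvcr1) exceeded an LFC of 1. With library size alone as the scaling, 5 were higher and 1 lower, with a median of 0.50. Without FeSO4/PBS mouse 1 the count was 6 and the median 0.49. With FeSO4/PBS mouse 1 and NaCl/PBS mouse 2 both left out the count was 7 and the median 0.66.

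**Figure D1:**
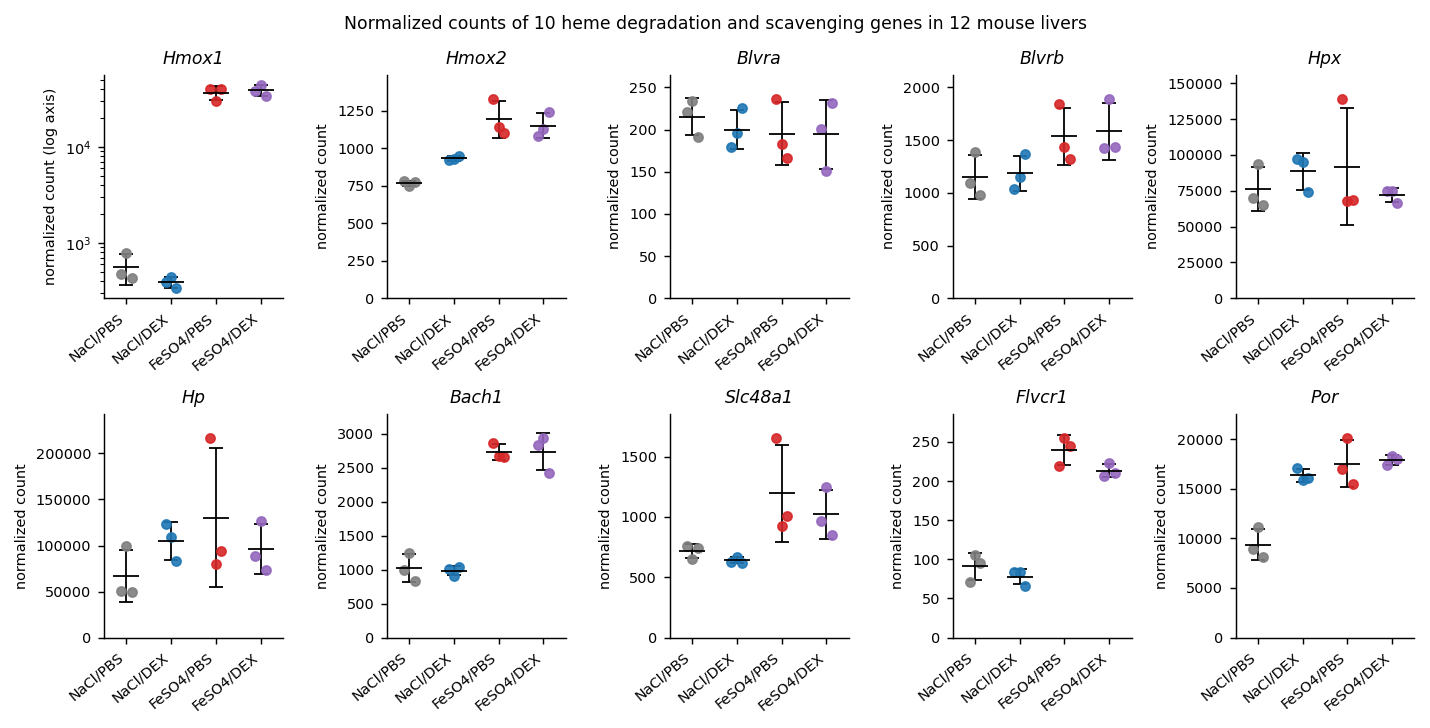
Normalized counts of the 10 genes (vertical axis, a log axis for Hmox1 and linear from 0 for the others) in the 4 groups, with 1 point per mouse and the mean ± SD of 3 mice as bars. The Hmox1 counts of the 6 FeSO4 mice, from 29684 upwards, lie far above those of the 6 NaCl mice, from 791 downwards, whereas the Hpx groups overlap.

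Hmox1 (ENSMUSG00000005413, chr8:75820241-75827217 on GRCm39, plus strand) gave the largest response of the members. Control livers (NaCl/PBS) held 471, 791 and 428 normalized counts, and FeSO4/PBS livers 40304, 29684 and 39664. Every FeSO4/PBS mouse was thus above every NaCl/PBS mouse, and the LFC was 6.02 (SE 0.26, edgeR adjusted p = 3.34e-09), a 65.0-fold rise. Leaving out each mouse in turn gave LFCs of 5.86 to 6.35. Ranked by normalized count per kb of the canonical transcript among 13819 genes, Hmox1 stood at places 1583 to 2650 in controls and at places 48 to 71 after FeSO4. Hp and Hpx stood at places 7 to 32 in the latter mice. The constitutive Hmox2 (ENSMUSG00000004070, chr16:4544216-4589816, plus strand) moved far less. It had 780, 746 and 774 normalized counts in NaCl/PBS mice and 1332, 1143 and 1103 in FeSO4/PBS mice, without overlap. Its LFC was 0.64 (SE 0.10, edgeR adjusted p = 0.000125). Exons of Hmox2 share 6248 bases with Cdip1 on the other strand. Which strand column was counted is not given in the sources used here, so how reads in the shared bases were counted is not known.

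The ratio of Hmox1 to Hmox2 within a library, per kb of transcript, puts the isozymes on 1 scale. It was 2.66, 4.67 and 2.44 in NaCl/PBS mice, 1.85, 2.09 and 1.58 in NaCl/DEX mice, 133, 114 and 158 in FeSO4/PBS mice, and 156, 173 and 119 in FeSO4/DEX mice. Per kb the inducible form was the higher of the pair in every liver, whereas without the length Hmox2 had more normalized counts in all NaCl/DEX mice and in NaCl/PBS mice 1 and 3. The log2 ratio was higher by 5.88 after FeSO4, a 58.9-fold difference (exact permutation within PBS and DEX mice, two-sided p = 0.005, the smallest that 400 regroupings allow, adjusted over 3 ratios p = 0.0075). The Hmox2 model used for the length is long, at 6948 bases against 1577 for Hmox1, so the size of each ratio, and which of the pair is higher in NaCl mice, rests on that length, while the change does not.

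The biliverdin reductases did not move together. Blvrb (ENSMUSG00000040466, chr7:27147275-27165569, plus strand), which reduces biliverdin and flavins, had 1089, 1383 and 978 normalized counts in NaCl/PBS mice and 1843, 1440 and 1325 in FeSO4/PBS mice. The groups overlapped through NaCl/PBS mouse 2, and the LFC of 0.42 (SE 0.17, edgeR adjusted p = 0.0495) only just passed. Without FeSO4/PBS mouse 1 the LFC was 0.27 (edgeR adjusted p = 0.192), and without NaCl/PBS mouse 3 it was 0.31 (edgeR adjusted p = 0.186). The call was lost too without NaCl/PBS mouse 1 (0.38, edgeR adjusted p = 0.13), and narrowly (edgeR adjusted p of 0.0516 to 0.0607) without FeSO4/PBS mouse 2, NaCl/DEX mouse 1 or 2, or FeSO4/DEX mouse 1 or 3. Blvra (ENSMUSG00000001999, chr2:126912556-126939017, plus strand), the main reductase of adult bilirubin formation, lay between 166 and 237 normalized counts in the 6 mice without DEX. Its LFC was -0.14 (SE 0.18, edgeR adjusted p = 0.543), with a 95% interval of -0.49 to 0.22. With library size alone as the scaling, Blvra passed as lower, with an LFC of -0.46 (edgeR adjusted p = 0.0405), and Blvrb did not pass, with 0.10 (edgeR adjusted p = 0.615).

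A ratio within a library does not depend on scaling between libraries. Per kb, Blvrb exceeded Blvra by 5.08, 6.10 and 5.27 times in NaCl/PBS mice and by 8.01, 8.09 and 8.22 times in FeSO4/PBS mice, so that the groups did not overlap. With DEX the ratios were 5.97, 6.04 and 6.25 in NaCl mice and 7.30, 12.9 and 6.36 in FeSO4 mice, and again all FeSO4 mice were higher. Over both arms the log2 ratio was higher by 0.52, or 1.43-fold, after FeSO4 (exact permutation, p = 0.005, adjusted over 3 ratios p = 0.0075).

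**Figure D2:**
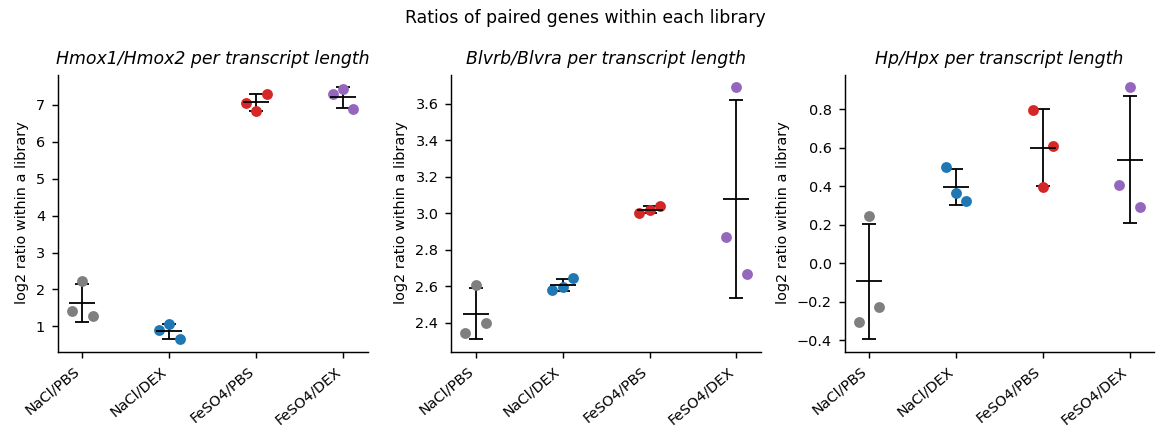
Log2 ratio of Hmox1 to Hmox2, of Blvrb to Blvra and of Hp to Hpx within each library, per kb of canonical transcript, with 1 point per mouse and the mean ± SD of 3 mice. The FeSO4 mice lie above the NaCl mice of the same second injection in the first and second panels, with mean differences of 5.88 and 0.52, and the groups overlap in the panel of Hp to Hpx for DEX mice.

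The plasma scavengers were by far the most abundant members. In NaCl/PBS mice Hpx had 50816 ± 10177 and Hp 49643 ± 21198 normalized counts per kb (SD, n = 3), and their ranges overlapped. Por followed with 3556 ± 593 per kb, then Blvrb with 995 ± 181 and Hmox1 with 357 ± 126. The order went on with Slc48a1 at 266 ± 21.9, Blvra at 181 ± 18.3, Bach1 at 173 ± 34.4, Hmox2 at 110 ± 2.57 and Flvcr1 at 22.2 ± 4.33 per kb. Of these neighbours, the ranges of Hmox1 and Slc48a1 and those of Blvra and Bach1 overlapped. In FeSO4/PBS mice Hmox1 had overtaken all but the plasma scavengers with 23177 ± 3776 per kb (SD, n = 3), above Por at 6650 ± 893, while Flvcr1 remained last at 58.5 ± 4.60.

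**Figure D3:**
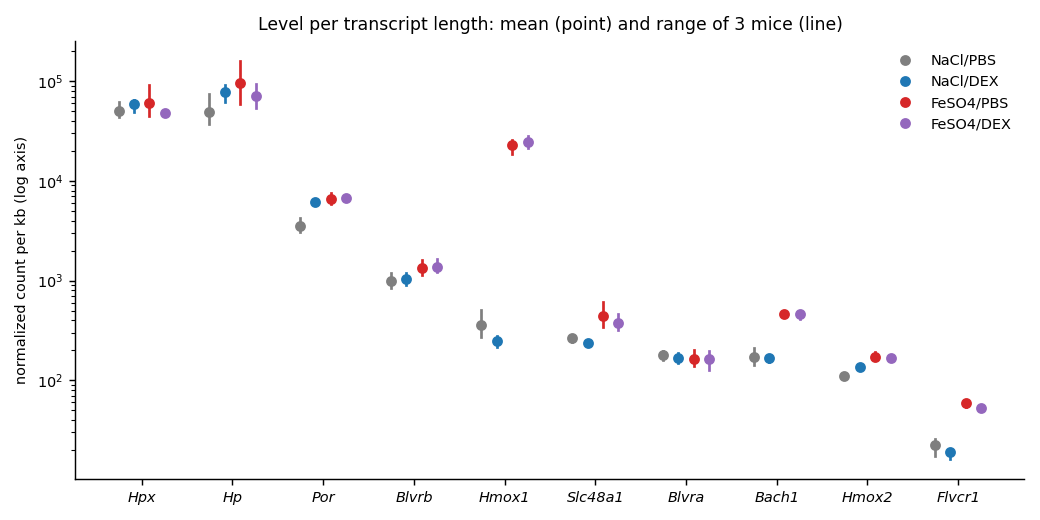
Normalized count per kb of canonical transcript (log axis) for the 10 genes in the order of their NaCl/PBS means, with the mean as a point and the range of 3 mice as a line for each of the 4 groups. Hmox1 lies below Por and Blvrb in the NaCl/PBS mice, at 357, and above both in the FeSO4/PBS mice, at 23177.

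Both scavengers are acute-phase proteins, and both varied strongly between mice. Hp (ENSMUSG00000031722, chr8:110301759-110305804, minus strand) had 50712, 99762 and 49983 normalized counts in NaCl/PBS mice and 216968, 80010 and 93811 in FeSO4/PBS mice. NaCl/PBS mouse 2 lay above FeSO4/PBS mice 2 and 3, and the LFC was 0.96 (SE 0.36, edgeR adjusted p = 0.0355). Without FeSO4/PBS mouse 1 the LFC was 0.38 (edgeR adjusted p = 0.29), and it also missed the threshold if NaCl/PBS mouse 1 (0.80, edgeR adjusted p = 0.123) or mouse 3 (0.79, edgeR adjusted p = 0.127) was left out. DESeq2 gave 0.98 with an adjusted p of 0.0619, and library size alone 0.63 (edgeR adjusted p = 0.129). Hpx (ENSMUSG00000030895, chr7:105240817-105249344, minus strand) had 69904, 93774 and 65297 normalized counts in NaCl/PBS mice and 139423, 67777 and 68607 in FeSO4/PBS mice. Only FeSO4/PBS mouse 1 stood above the NaCl/PBS mice. The LFC of 0.27 (SE 0.24, edgeR adjusted p = 0.369) did not pass, and its 95% interval ran from -0.21 to 0.74. Without FeSO4/PBS mouse 1 its sign turned, at -0.16. Per kb, Hp stood to Hpx at 0.81, 1.19 and 0.85 in NaCl/PBS mice and at 1.74, 1.32 and 1.53 in FeSO4/PBS mice. Over both arms the log2 ratio was higher by 0.42 (exact permutation, p = 0.045, adjusted over 3 ratios p = 0.045), but the difference was 0.70 in PBS mice and 0.14 in DEX mice, and without FeSO4/DEX mouse 2 it was 0.32 (exact permutation, p = 0.1).

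Bach1 (ENSMUSG00000025612, chr16:87495782-87530234, plus strand), the repressor of Hmox1, was itself upregulated. It had 994, 1237 and 833 normalized counts in NaCl/PBS mice and 2860, 2671 and 2655 in FeSO4/PBS mice. The groups stood well apart, with an LFC of 1.42 (SE 0.14, edgeR adjusted p = 1.68e-06) or 2.67-fold, and leaving out each mouse gave 1.29 to 1.58. Against 27.2% of all genes called higher and 27.3% lower, 3 of 7 partners and antagonists of BACH1 were upregulated and none fell. These were the small MAF genes Mafk (LFC 1.99, edgeR adjusted p = 9.96e-08) and Maff (LFC 2.88, edgeR adjusted p = 2.37e-06), whose proteins pair with BACH1 and NRF2 on DNA, and the relative Bach2. The mRNAs of NRF2 itself (Nfe2l2, LFC -0.07, SE 0.11), of its inhibitor Keap1 (-0.07, SE 0.12) and of Fbxo22, which helps to degrade BACH1 (-0.12, SE 0.12), did not pass, and the median LFC of the list was -0.07. With library size alone 3 of the 7 were higher and 4 lower, among them Nfe2l2 (-0.40, edgeR adjusted p = 0.0059), with a median of -0.39.

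Other genes that BACH1 and NRF2 are known to control rose with Bach1 and Hmox1. Of 11 tested, 9 rose and 1 fell, with a median LFC of 1.27, against 27.2% and 27.3% of all genes. Nqo1, a quinone reductase, had an LFC of 1.27 (SE 0.36, edgeR adjusted p = 0.00864), which was 0.69 (edgeR adjusted p = 0.0618) without FeSO4/PBS mouse 1. Slc7a11, the cystine carrier, was read 3, 0 and 1 times in controls and 226, 63 and 42 times after FeSO4. The member that fell was the iron exporter Slc40a1, from 3713 ± 304 to 967 ± 107 normalized counts (SD, n = 3; LFC -1.94, SE 0.14, edgeR adjusted p = 1.18e-07). Without FeSO4/PBS mouse 1, 7 of the 11 rose and the median was 0.91.

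Flvcr1 (ENSMUSG00000066595, chr1:190733367-190758440, minus strand) was the least abundant member and among the most clearly raised. It had 71.2, 106 and 95.7 normalized counts in NaCl/PBS mice and 219, 255 and 245 in FeSO4/PBS mice. No mice overlapped, and the LFC was 1.40 (SE 0.17, edgeR adjusted p = 1.1e-05). These values rest on 99 to 113 reads per NaCl/PBS library, and some exons overlap other genes, among them 894 bases of the antisense A230020J21Rik and 427 bases of the pseudogene Gm8407. Slc48a1 (ENSMUSG00000081534, chr15:97676401-97690573, plus strand) had 758, 649 and 742 normalized counts in NaCl/PBS mice and 1655, 924 and 1004 in FeSO4/PBS mice. Mouse 1 was the highest, but mice 2 and 3 also exceeded all controls. Its LFC was 0.74 (SE 0.19, edgeR adjusted p = 0.00518). It was 0.43 without FeSO4/PBS mouse 1, still called, and 0.36 (edgeR adjusted p = 0.065) with NaCl/PBS mouse 2 left out too. With library size alone it was 0.41 (edgeR adjusted p = 0.0668). Slc48a1 shares 2396 exon bases with Hdac7 on the other strand.

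Of 12 further genes of heme transport, binding and uptake, 3 rose and 1 fell, against 27.2% and 27.3% of all genes, and the median LFC was -0.14. Ambp, which encodes the heme-binding plasma protein alpha-1-microglobulin, had the largest rise, with an LFC of 0.55 (SE 0.14, edgeR adjusted p = 0.0041). The heme chaperone Pgrmc1 rose by 0.34 (SE 0.13, edgeR adjusted p = 0.0361), a call lost without FeSO4/PBS mouse 1 (0.33, edgeR adjusted p = 0.0583) or NaCl/PBS mouse 2 (0.31, edgeR adjusted p = 0.103), and Abcg2 was the other gene called. Abcc5 fell, with an LFC of -0.84 (SE 0.23, edgeR adjusted p = 0.00696). The receptors that take up the complexes of hemopexin and haptoglobin did not pass. Lrp1 had an LFC of -0.23 (SE 0.11, edgeR adjusted p = 0.088) and Cd163, a macrophage gene, of -0.72 (SE 0.32, edgeR adjusted p = 0.0726). The plasma heme binder Hrg had an LFC of -0.10 (SE 0.13). With library size alone 0 of the 12 genes rose and 8 fell, and the median was -0.46.

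Downstream of biliverdin reductase, bilirubin is conjugated by UGT1A1 and exported into bile by ABCC2. Their mRNAs did not pass with TMM, with LFCs of -0.06 (SE 0.13) for Ugt1a1 and -0.11 (SE 0.17) for Abcc2. Of 10 genes of bilirubin uptake, conjugation and export, 2 rose and 2 fell, against 27.2% and 27.3% of all genes. Their median LFC was -0.01. With library size alone 0 rose and 4 fell, with a median of -0.34. Abcc3, which exports conjugates into blood, rose by 0.51 (SE 0.15, edgeR adjusted p = 0.00846), or 0.20 (edgeR adjusted p = 0.265) with library size alone. Nr1i3, which encodes the receptor CAR that controls bilirubin clearance genes, fell by 2.28 on the log2 scale (SE 0.20, edgeR adjusted p = 8.07e-07).

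Por (ENSMUSG00000005514, chr5:135698887-135764182, plus strand) serves heme oxygenase and the microsomal cytochromes P450 alike. It had 8949, 11113 and 8076 normalized counts in NaCl/PBS mice and 16970, 20133 and 15527 in FeSO4/PBS mice. The groups did not overlap, and the LFC was 0.90 (SE 0.13, edgeR adjusted p = 7.33e-05). Against 27.2% of all genes called higher and 27.3% lower, the electron acceptors and partners of POR gave 0 of 10 higher and 4 lower. Their median LFC was -0.17. Without FeSO4/PBS mouse 1 these counts were 1 and 2, with a median of -0.31, and Cyb5b was no longer called (-0.38, edgeR adjusted p = 0.0661). The bile acid enzyme Cyp7a1 fell most, from 6960 ± 589 to 107 ± 43.9 normalized counts (SD, n = 3; LFC -6.01, SE 0.49, edgeR adjusted p = 3.56e-07), and Cyb5b least, by 0.42 (SE 0.15, edgeR adjusted p = 0.028). Cyb5a (LFC 0.10, SE 0.13) and Cyp1a2 (LFC 0.58, SE 0.24, edgeR adjusted p = 0.0566) did not pass. DESeq2 called 3 of the 10 higher and 4 lower.

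**Figure D4:**
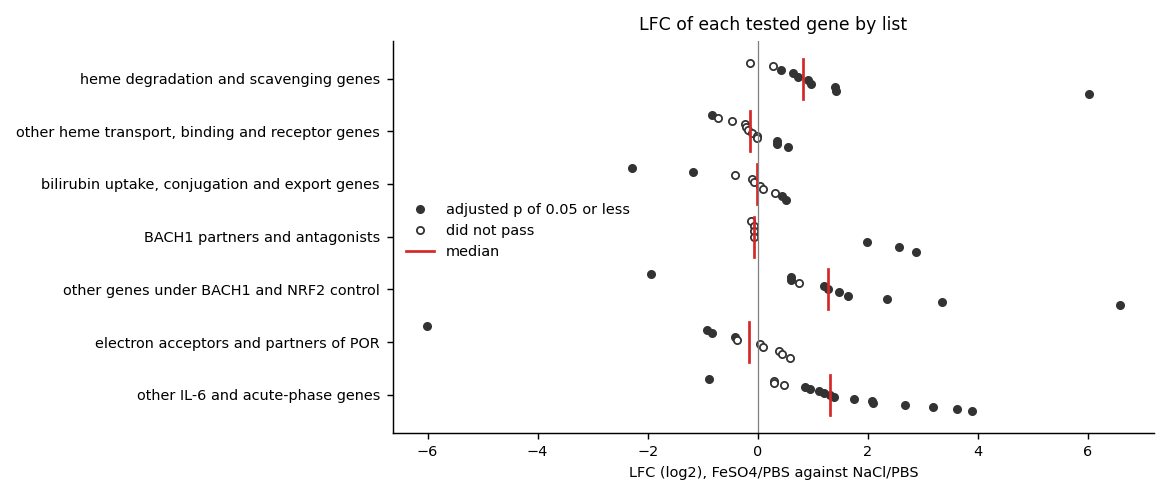
LFC of FeSO4/PBS against NaCl/PBS mice (horizontal axis, log2) for each tested gene of 7 lists, filled where the edgeR adjusted p was 0.05 or less, with the median of each list as a line. The 10 genes have a median of 0.82, against 1.27 for the other genes under BACH1 and NRF2 control and -0.17 for the partners of POR. The point furthest right in its list is Slc7a11, whose fitted value rests on 0 to 3 reads per control library.

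In NaCl mice DEX called 1 of the 10 members, Por, and it was higher, against 6.50% of all genes higher and 7.15% lower. The count of members is near the share of all genes. Por had 17041, 15904 and 16068 normalized counts in NaCl/DEX mice, all above the NaCl/PBS mice. The LFC was 0.80 (SE 0.13, edgeR adjusted p = 0.00108). These control mice are the same as for the FeSO4 effect on Por. Hmox2 had 922, 926 and 948 normalized counts, also above every NaCl/PBS mouse, but its LFC of 0.28 (SE 0.10) had an edgeR adjusted p of 0.0831 and passed with DESeq2 (0.31, adjusted p = 0.0265) and without FeSO4/PBS mouse 1 (0.30, edgeR adjusted p = 0.0204). Hmox1 had 388, 439 and 339 normalized counts, overlapping the control with 428. The LFC was -0.53 (SE 0.21, edgeR adjusted p = 0.124). Without NaCl/PBS mouse 2, the highest control, it was -0.20 (edgeR adjusted p = 0.552). Scaled by library size alone, with all mice, it passed as lower, at -0.68 (edgeR adjusted p = 0.0401). Hp had 123035, 109607 and 82776 normalized counts and an LFC of 0.65 (SE 0.36, edgeR adjusted p = 0.27), which was 1.06 (edgeR adjusted p = 0.0056) with FeSO4/PBS mouse 1 and NaCl/PBS mouse 2 left out. LFCs of the other 6 members lay between -0.21 for Flvcr1 and 0.22 for Hpx.

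Of the other genes of these pathways, DEX alone called 1 higher and 1 lower of 12 in heme transport. In bilirubin handling it called 1 higher and 1 lower of 10. It called 2 higher and 1 lower of 7 partners of BACH1, and 1 higher and 0 lower of 10 partners of POR. Of the 11 other genes under BACH1 and NRF2 control it called 0. The shares of all tested genes were 6.50% higher and 7.15% lower. Nfe2l2 fell by 0.73 on the log2 scale (SE 0.11, edgeR adjusted p = 0.000527), and Maff rose by 2.62 (SE 0.29, edgeR adjusted p = 4.04e-05). The transporter gene Flvcr2, a relative of Flvcr1, rose by 2.27 (SE 0.26, edgeR adjusted p = 4.95e-05), whereas Lrp1 fell by 0.42 (SE 0.11, edgeR adjusted p = 0.0189), a call lost without NaCl/PBS mouse 2 (-0.39, edgeR adjusted p = 0.0666). Cyp3a11, a P450 that takes electrons from POR, rose by 1.05 (SE 0.16, edgeR adjusted p = 0.00057). None of the 11 genes under BACH1 and NRF2 control was called, and the median LFC of that list was 0.07.

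In mice that had received FeSO4, DEX changed none of the 10 members with edgeR, and at an unadjusted p under 0.05 the count was 0 as well. Of all tested genes, 0.00% were called higher and 0.00% lower, with 444 higher and 456 lower at an unadjusted p under 0.05. DESeq2 also called 0 members. Hmox1 had 38248, 44259 and 33610 normalized counts in FeSO4/DEX mice, overlapping the FeSO4/PBS mice. The LFC was 0.08 (SE 0.21) with a 95% interval of -0.32 to 0.49. Bach1 had 2838, 2938 and 2427 normalized counts, an LFC of 0.00 (SE 0.13). Por had 17372, 18275 and 18035, an LFC of 0.03 (SE 0.13) with an interval of -0.23 to 0.29. The 95% intervals of Hpx (-0.82 to 0.13) and Hp (-1.14 to 0.26) were wider, so changes within those ranges are not excluded by these mice.

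**Figure D5:**
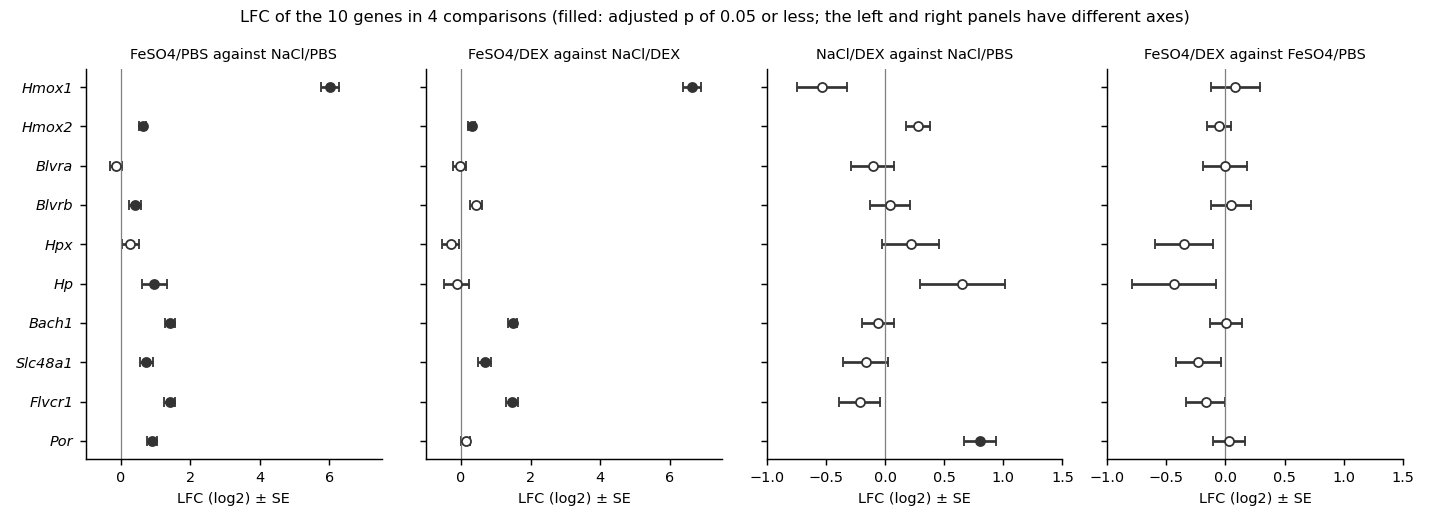
LFC (log2, horizontal axis) with its SE for the 10 genes in 4 comparisons, filled where the edgeR adjusted p was 0.05 or less, with a wider axis in the left pair of panels. Filled points number 8 and 5 in the FeSO4 comparisons, 1 for DEX in NaCl mice and 0 for DEX in FeSO4 mice.

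Among mice given DEX, FeSO4 upregulated 5 of the 10 members and downregulated none, against 22.4% and 20.9% of all genes. Hmox1 had an LFC of 6.64 (SE 0.27, edgeR adjusted p = 8.03e-09), Bach1 of 1.48 (SE 0.14, edgeR adjusted p = 1.85e-06) and Flvcr1 of 1.45 (SE 0.17, edgeR adjusted p = 1.56e-05). In each of these genes the FeSO4/DEX mice were all above the NaCl/DEX mice, with 207, 223 and 211 normalized counts against 83.7, 83.7 and 66.5 for Flvcr1. Slc48a1 rose from 629, 668 and 621 to 966, 1244 and 853 normalized counts (LFC 0.67, SE 0.19, edgeR adjusted p = 0.0122). Without FeSO4/DEX mouse 2 its LFC was 0.48 (edgeR adjusted p = 0.0838). Hmox2 rose by 0.30 (SE 0.10, edgeR adjusted p = 0.0255), a call lost without any 1 NaCl/DEX mouse or FeSO4/DEX mouse 2 or 3 (0.21 to 0.31, edgeR adjusted p of 0.056 to 0.152) and with library size alone (0.11, edgeR adjusted p = 0.399). Blvrb had the same LFC as without DEX, 0.42 (SE 0.17), with an edgeR adjusted p of 0.0607, and passed without NaCl/DEX mouse 3 (0.53, edgeR adjusted p = 0.0422). Hp (-0.13, SE 0.36) and Hpx (-0.30, SE 0.24) did not pass, and neither did Por (0.13, SE 0.13, edgeR adjusted p = 0.453). Cd163 was downregulated here, with an LFC of -1.45 (SE 0.32, edgeR adjusted p = 0.00244).

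Whether DEX acted differently after FeSO4 than after NaCl was tested with the interaction of both injections. Por was the 1 member called, against 3.20% of all genes called lower and 2.99% higher. Its DEX effect was lower by 0.77 on the log2 scale in FeSO4 mice (SE 0.19, edgeR adjusted p = 0.0265). Por thus stood at 9379 ± 1564 normalized counts in NaCl/PBS mice and at 16338 ± 614, 17543 ± 2356 and 17894 ± 468 in NaCl/DEX, FeSO4/PBS and FeSO4/DEX mice (SD, n = 3). In 12 fits that each left out 1 mouse the LFC was -0.93 to -0.66. The call was lost in 7 of them (edgeR adjusted p of 0.0508 to 0.0738), without NaCl/PBS mouse 1 or 3, NaCl/DEX mouse 1 or 3, FeSO4/PBS mouse 2, or FeSO4/DEX mouse 1 or 3. For Hp the difference was -1.09 (SE 0.51), with an edgeR adjusted p of 0.243. It was -0.55 without FeSO4/PBS mouse 1 and -1.52 without NaCl/PBS mouse 2 (edgeR adjusted p = 0.0915). For Hmox1 it was 0.62 (SE 0.30, edgeR adjusted p = 0.264), and 0.27 without NaCl/PBS mouse 2. Among the partners of POR, Cyp3a11 was called too, at -0.87 (SE 0.23, edgeR adjusted p = 0.0365), but not without NaCl/PBS mouse 2 (-0.84, edgeR adjusted p = 0.0673). Nfe2l2 was called at 0.70 (SE 0.16, edgeR adjusted p = 0.0165) and Maff at -1.96 (SE 0.38, edgeR adjusted p = 0.00781).

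The genes whose levels followed each member most closely over the 12 livers were found among 8959 genes as those with the smallest root mean square difference of centred log2 values. This is a description over mice that share their groups. For Hmox1, which itself spread by 3.19 on that scale, they were Fosl1 at 0.37, Arid5a at 0.49 and Rab30 at 0.77. For Bach1, with a spread of 0.74, they were Wdr45b at 0.13, Tomm20 at 0.13 and Gjb2 at 0.14. Tomm20 was also nearest to Flvcr1, at 0.16, followed by Socs7 and Fzd6. Por lay nearest to Odc1 at 0.13, then Wbp1l and Atl2. Hmox2 lay nearest to Smap1, Tax1bp1 and Rpl35a, Blvrb to Psmb5, Rpl39 and Grina, Slc48a1 to Safb, Prpf19 and Abhd4, and Hp to Dph5, Kpna2 and Ltv1, the last at 0.29 to 0.30 against a spread of 0.55 of Hp itself.

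Upstream sequences were read for the members that rose together and for those that did not pass, to show which known elements their letters hold. RefSeq (GRCm38.p6) gave 7 of the 10 members, and Hmox1, Hp and Slc48a1 are not among them. The 250 bases before each start site were searched on both strands for TGACNNNGC, the core of the antioxidant element of BACH1 and NRF2, for TTCNNNGAA of STAT3, for TTNNGNAA of C/EBP factors and for TGTTCT, a core of glucocorticoid elements. They occur in 10.2%, 7.02%, 36.8% and 16.1% of 32851 such regions. Below, each sequence runs 5′ to 3′ on the gene's strand and ends at the base before the start site, with matches in capitals.
Flvcr1, chr1:191026191-191026440, minus strand: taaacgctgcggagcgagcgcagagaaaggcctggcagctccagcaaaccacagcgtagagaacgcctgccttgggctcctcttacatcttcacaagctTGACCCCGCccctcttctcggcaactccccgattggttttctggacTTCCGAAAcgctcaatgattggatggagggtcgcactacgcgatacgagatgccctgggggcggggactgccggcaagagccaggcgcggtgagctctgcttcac
Bach1, chr16:87698704-87698953, plus strand: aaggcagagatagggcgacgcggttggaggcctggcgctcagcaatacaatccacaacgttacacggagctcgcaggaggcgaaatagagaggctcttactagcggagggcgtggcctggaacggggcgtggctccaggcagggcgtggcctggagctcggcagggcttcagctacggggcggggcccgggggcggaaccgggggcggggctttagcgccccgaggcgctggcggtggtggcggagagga
Por, chr5:135688895-135689144, plus strand: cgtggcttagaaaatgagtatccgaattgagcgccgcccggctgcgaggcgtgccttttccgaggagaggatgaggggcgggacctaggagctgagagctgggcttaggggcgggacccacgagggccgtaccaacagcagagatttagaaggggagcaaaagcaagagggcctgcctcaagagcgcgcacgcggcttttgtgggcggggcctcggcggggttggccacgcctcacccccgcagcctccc
Blvra, chr2:127070407-127070656, plus strand: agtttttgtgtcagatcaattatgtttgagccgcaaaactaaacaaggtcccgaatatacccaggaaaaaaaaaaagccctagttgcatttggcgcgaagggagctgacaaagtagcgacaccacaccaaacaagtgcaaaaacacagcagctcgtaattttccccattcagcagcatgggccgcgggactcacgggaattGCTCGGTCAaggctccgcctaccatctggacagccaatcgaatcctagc
Hpx, chr7:105600117-105600366, minus strand: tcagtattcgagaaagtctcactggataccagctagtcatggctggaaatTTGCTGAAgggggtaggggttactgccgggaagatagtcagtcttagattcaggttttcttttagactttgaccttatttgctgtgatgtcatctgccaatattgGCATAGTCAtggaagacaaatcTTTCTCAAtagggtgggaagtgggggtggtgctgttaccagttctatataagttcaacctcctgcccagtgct

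Of the upregulated members with an upstream sequence (Flvcr1, Bach1, Por, Hmox2 and Blvrb), only Flvcr1 held an antioxidant core, with its first base at -151 from the start site. The sequences of Hmox2 and Blvrb were searched but are not printed above. Bach1 and Por held none of the 4 motifs, and neither did either of the 2 start sites of Blvrb. Blvra and Hpx, which did not pass after FeSO4, each held an antioxidant core on the other strand, at -49 and -95. Hpx also held C/EBP letters at -200 and -73, and Flvcr1 at -105. Hmox2 held TGTTCT at -133 of its first start site. The upstream sequences of its other start sites overlap and hold the same C/EBP match, at -122 of the second site and -187 of the third. STAT3 letters were found in none. A match to these letters is a description and no measure of binding.

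Markers of cell types are given beside the members for FeSO4/PBS against NaCl/PBS mice, since blood and macrophages handle heme. Of all tested genes, 27.2% were called higher and 27.3% lower in this comparison. The 7 hepatocyte markers summed to 2062812 to 2457689 normalized counts in NaCl/PBS mice and 2531439 to 2892785 in FeSO4/PBS mice, and 2 of them rose. Of 10 Kupffer cell and macrophage markers, 8 fell, among them Marco most, and 1, Cd14, rose, with a median LFC of -0.75. Their sum went from 9204 to 10762 normalized counts in NaCl/PBS mice to 6170 to 7226 in FeSO4/PBS mice. Of 7 neutrophil markers tested, 6 rose, and the sum of all 10 went from 122 to 299 up to 814 to 970. Of 6 red cell and erythroid markers tested, 3 rose, all of them globin genes, and the sum of all 10 went from 1682 to 3829 up to 2919 to 5600, with overlap. Without NaCl/PBS mouse 2, 0 of 7 red cell markers were called. Of the remaining markers, endothelial genes gave 2 higher and 4 lower of 8, stellate cell genes 2 and 2 of 8, cholangiocyte genes 2 higher of 5 and lymphocyte genes 1 lower of 5. With library size alone, hepatocyte and red cell markers each gave 0 higher and 1 lower. Endothelial genes then gave 2 higher and 6 lower, stellate cell genes 0 and 2, cholangiocyte genes 1 higher and lymphocyte genes 2 lower. The counts of macrophage and neutrophil markers stayed the same. Of 17 further acute-phase and IL-6 genes, 13 rose and 1 fell, with a median LFC of 1.32. Lcn2 had the largest LFC, 3.88 (SE 0.53, edgeR adjusted p = 3.32e-05), Socs3 had 3.19 (SE 0.48, edgeR adjusted p = 7.83e-05), and Saa1 had 2.10 (SE 0.75, edgeR adjusted p = 0.0297) with overlapping mice. The LFC of Saa1 was 0.61 (edgeR adjusted p = 0.406) without FeSO4/PBS mouse 1. Apcs fell by 0.89 (SE 0.19, edgeR adjusted p = 0.00122). Without FeSO4/PBS mouse 1, 11 of the 17 acute-phase and IL-6 genes rose and 1 fell, with a median LFC of 0.94. With library size alone 12 rose and 1 fell, with a median of 0.99. The part of these cells in the members' changes was not tested.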

How the data were processed

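Livers of 12 mice in 4 groups of 3 were analysed, with groups taken from the sample titles. Per the labels and the study's methods, the authors prepared stranded poly(A) libraries, sequenced them single-end, ran FastQC, aligned with STAR 2.7.10b to mm39 and GENCODE junctions, and deposited raw counts per Ensembl gene, without normalization. The strand used for counting is not given in the sources used here. From these counts, edgeR 4.0.16 in R 4.3.3 fitted 1 quasi-likelihood model of 4 group means, with TMM factors and filterByExpr (13857 of 55414 genes kept, 30401 without a count). Calls were made at 0.05 after Benjamini-Hochberg adjustment. LFCs used a prior count of 0.125, and 95% intervals are the LFC ± normal quantile times its SE. Normalized counts are at the mean effective library size. Gene symbols (54749 ids), positions and transcript lengths came from GENCODE vM39, a later release than the authors used.

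TMM factors lay between 0.871 and 1.16. Within groups, mice differed by a chi-square per gene of 16.8 to 81.4, far above sampling noise, so each library counted as 1 mouse. Per the title each mouse is a replicate of its group, and the number of mice limits precision more than depth does. Ratios of 2 genes used raw counts plus a pseudocount of 0.5, divided by transcript length, with a two-sided exact permutation test within PBS and DEX mice. The fit was checked on simulated data. Planned protein comparisons were not analysed here.

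Genes named outside the 10 were a set of receptors, partners and targets, the largest and smallest called LFC of each list, and the 3 nearest genes by pattern with a mean of at least 100 normalized counts. Flvcr2, Abcg2, Bach2 and the DEX values of Cyp3a11 were added once their values were known. The members and lists were chosen with earlier results of these data known. Alternatives were DESeq2 1.42.0, DESeq2 size factors, library size alone, no filter, a minimum of 10 counts in every library, a block of replicate numbers, the libraries of a comparison alone and each mouse left out. The fit without FeSO4/PBS mouse 1 and NaCl/PBS mouse 2 was chosen after seeing the data. Upstream sequences were RefSeq's on GRCm38.p6.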

Additional observations from a re-analysis of the deposited data

Results flagged for a closer look

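The DEX effect on Por differed between FeSO4 and NaCl mice by -0.77 on the log2 scale (edgeR interaction, adjusted p = 0.0265). DEX raised Por by 0.80 in NaCl mice, where 3 of 3 treated mice exceeded all controls, and the LFC was 0.03 in FeSO4 mice, where the groups overlapped. FeSO4 without DEX had an LFC of 0.90 for Por against the same NaCl/PBS mice. Over fits leaving out 1 mouse, the interaction was -0.93 to -0.66 with an edgeR adjusted p of 0.0088 to 0.0738. The call was thus lost in some of these fits.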

How the results depend on the processing

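The FeSO4 calls of Hmox1, Hmox2, Bach1, Flvcr1 and Por in mice without DEX kept their direction and side of the threshold under all alternatives run, and so did those of Hmox1, Bach1 and Flvcr1 in DEX mice. Blvrb after FeSO4 did not pass with at least 10 counts in every library (0.40, edgeR adjusted p = 0.061) or with the libraries of the comparison alone (0.42, 0.0652). Over 12 fits leaving out 1 mouse, its LFC was 0.27 to 0.57. The members called by DEX in NaCl mice numbered 2 with DESeq2, with library size alone and with the libraries of the comparison alone. They also numbered 2 with FeSO4/PBS mouse 1 and NaCl/PBS mouse 2 both left out. Without a filter they numbered 3, and with 1 mouse left out 1 to 2. The members called by FeSO4 in DEX mice numbered 3 to 5 with 1 mouse left out, fewest without FeSO4/DEX mouse 2. The interaction gave 2 members without a filter, Por and Hp (-1.10), and 0 to 1 with 1 mouse left out. For the ratios, PBS mice alone gave log2 differences of 5.43 (Hmox1 to Hmox2), 0.57 (Blvrb to Blvra) and 0.70 (Hp to Hpx), and DEX mice alone 6.33, 0.47 and 0.14. There 0.1 is the smallest exact permutation p possible, so none could pass. With 1 mouse left out the Hp to Hpx difference was 0.32 to 0.50 and did not pass in 8 of 12 fits, the exceptions being those without NaCl/PBS mouse 2, NaCl/DEX mouse 1 or FeSO4/DEX mouse 1 or 3. The cause of these changes was not tested.

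Deviations from the group mean correlated little between mice with the same replicate number, with 2 of 18 pairs over 0.1 (range -0.09 to 0.13). Both were pairs of a NaCl/PBS with a NaCl/DEX mouse, at 0.129 and 0.109. Mice with different numbers were not compared, so these values cannot decide whether the numbers pair the samples. With the replicate block the Blvrb LFC was 0.43 (edgeR adjusted p = 0.0519). The ratio differences with the replicate block stayed at 5.88, 0.52 and 0.42, with an exact permutation p of 0.25, the smallest that 3 blocks allow.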
